A study of Mus musculus with 18 samples.

Results

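The phagocyte NADPH oxidase subunits described here were 5 genes, Cybb, Cyba, Ncf1, Ncf4 and Rac2, selected by name from the gene count table in all 6 conditions. They were 5 of 56748 genes listed. All 5 also passed the filter on low counts, which left 13691 genes for testing. Bulk RNA sequencing was carried out on RAW 264.7 cells, an established mouse macrophage line, with 3 libraries in each of 6 conditions. Control cells were untreated. TBHQ cells received 5 µM tert-butylhydroquinone, a phenolic food antioxidant, for 4 h. LPS cells received 0.1 µg/mL lipopolysaccharide, a bacterial cell wall component, for 12 h, and PIC cells received 20 µg/mL polyinosinic:polycytidylic acid, a synthetic double-stranded RNA, for 12 h. In the LPS + TBHQ and PIC + TBHQ conditions, 5 µM TBHQ was given for 4 h and the stimulus then followed for 12 h at the same dose.

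The oxidase of phagocytes moves electrons from NADPH across a membrane to oxygen and makes superoxide, the source of the respiratory burst used against microbes. Its catalytic core, cytochrome b558, lies in the membrane and is a pair of gp91phox and p22phox, encoded by Cybb and Cyba. In resting cells the regulatory subunits stay in the cytosol, among them p47phox from Ncf1 and p40phox from Ncf4, and they join the core together with the GTPase Rac2 when the cell is stimulated.

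The total count per library ran from 14423390 to 18851626, and each of the 5 genes had at least 2396 counts in every library. Levels are given as the authors' FPKM, fragment counts scaled by gene length and by library, so that genes of different length can be set side by side. That scaling was not by the library totals alone. It held a further constant for each library that differed by condition, from 0.943 to 0.951 in the control and 1.11 to 1.12 with PIC, and it bears on levels compared between conditions. Over the 18 libraries the mean FPKM was 478 for Cyba, 216 for Rac2, 188 for Cybb, 96.2 for Ncf4 and 81.2 for Ncf1. That order did not hold in every condition. Mean FPKM was higher for Cybb than for Rac2 with PIC (331 against 254) and with PIC + TBHQ (270 against 245). With TBHQ alone Ncf1 lay above Ncf4 (75.2 against 72.4). In untreated cells Cyba ranked 65 among all genes by FPKM and Rac2 ranked 254, while Cybb, Ncf4 and Ncf1 ranked 492, 584 and 646. Cybb varied far more than the others. Its mean normalised count differed 5.75-fold between the highest and the lowest condition, compared with 1.51-fold for Rac2, 1.48-fold for Ncf4, 1.33-fold for Cyba and 1.26-fold for Ncf1.

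The study's methods give 3 biological replicates per condition, but not whether these were cultured on separate days, so the adjusted p-values measure the spread between these cultures. TBHQ alone was harvested at 4 h, whereas the untreated cells followed the 12 h design of the stimulated ones, in medium only. In that comparison time in culture and TBHQ cannot be told apart. Whether the untreated cells and those with LPS or PIC alone first waited the 4 h of the pretreatment was not given in the sources used here. The 5 comparisons with the control share the same 3 control libraries. In these bulk samples fewer cells with a transcript and less of it per cell cannot be told apart.

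Stimulation raised most of the subunit genes. With LPS 4 of the 5 rose at an adjusted p below 0.05 (edgeR quasi-likelihood test, Benjamini-Hochberg adjusted), where 24% of all tested genes rose and 24.1% fell. They were Cybb, Ncf4, Rac2 and Ncf1, and the log2 fold change of Cyba was -0.07 (adjusted p = 0.173), or -0.16 with scaling to total library size (adjusted p = 0.00134) and -0.11 without LPS replicate 3 (adjusted p = 0.0385). PIC raised the same 4 genes, beside 28.6% of all tested genes higher and 30.1% lower, with Cyba at -0.09 (adjusted p = 0.0615), and with total library size Ncf4 lost its call and Cyba was called lower, as it also was without some single libraries, with no filter on low counts and with a replicate block. After TBHQ and LPS, Cybb, Rac2 and Ncf4 were higher than in the control and Cyba was lower, while 21.2% of all tested genes were higher and 22.5% lower. After TBHQ and PIC, 4 of the 5 were higher, with Ncf1 only 1.07-fold so, beside 26.4% of all genes higher and 26% lower, and with total library size Ncf1 lost its call and Cyba was called lower. Ncf1 also lost it without control replicate 1 or 3 or PIC + TBHQ replicate 2. TBHQ alone went the other way. Cybb, Cyba and Ncf4 fell, 3 of the 5 genes, where 14.8% of all tested genes fell and 14.2% rose.

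Within a stimulus, pretreated cells were compared with those given the stimulus alone. Between LPS + TBHQ and LPS, Cyba and Ncf1 were lower and Rac2 was higher, 3 of the 5, with 12.2% of all tested genes lower and 11.7% higher. Rac2 lost its call without LPS replicate 2 or 3 or LPS + TBHQ replicate 1 or 3. Between PIC + TBHQ and PIC, Cybb and Ncf1 were lower, 2 of the 5, with 15.5% of all genes lower and 15.8% higher, and with total library size Cyba and Ncf4 were called higher as well. PIC gave higher levels than LPS for 3 of the 5, Cybb, Rac2 and Ncf1, beside 14.9% of all tested genes higher and 12.8% lower. With total library size Ncf1 and Rac2 lost that call and Cyba and Ncf4 were called lower with PIC. After TBHQ the comparison of PIC with LPS found Cybb and Cyba higher, 2 of the 5, beside 11.9% higher and 8.39% lower overall. The TBHQ change itself differed between the stimuli for 2 of the 5 genes, Cybb and Cyba, and for 1.83% of all tested genes, while limma called Cybb alone and DESeq2 Rac2 as well. By the study's stricter threshold of an adjusted p below 0.01 and an absolute log2 fold change above 2, edgeR passed 0 of the 5 in any comparison with the control, as did DESeq2 and limma, and 0 had that fold at an unadjusted p below 0.05. Of all tested genes, 0.19% passed that threshold in TBHQ cells, 1.64% in LPS cells and 3.57% in PIC cells. The share was 0.964% after TBHQ and LPS and 2.15% after TBHQ and PIC.

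**Figure D1:**
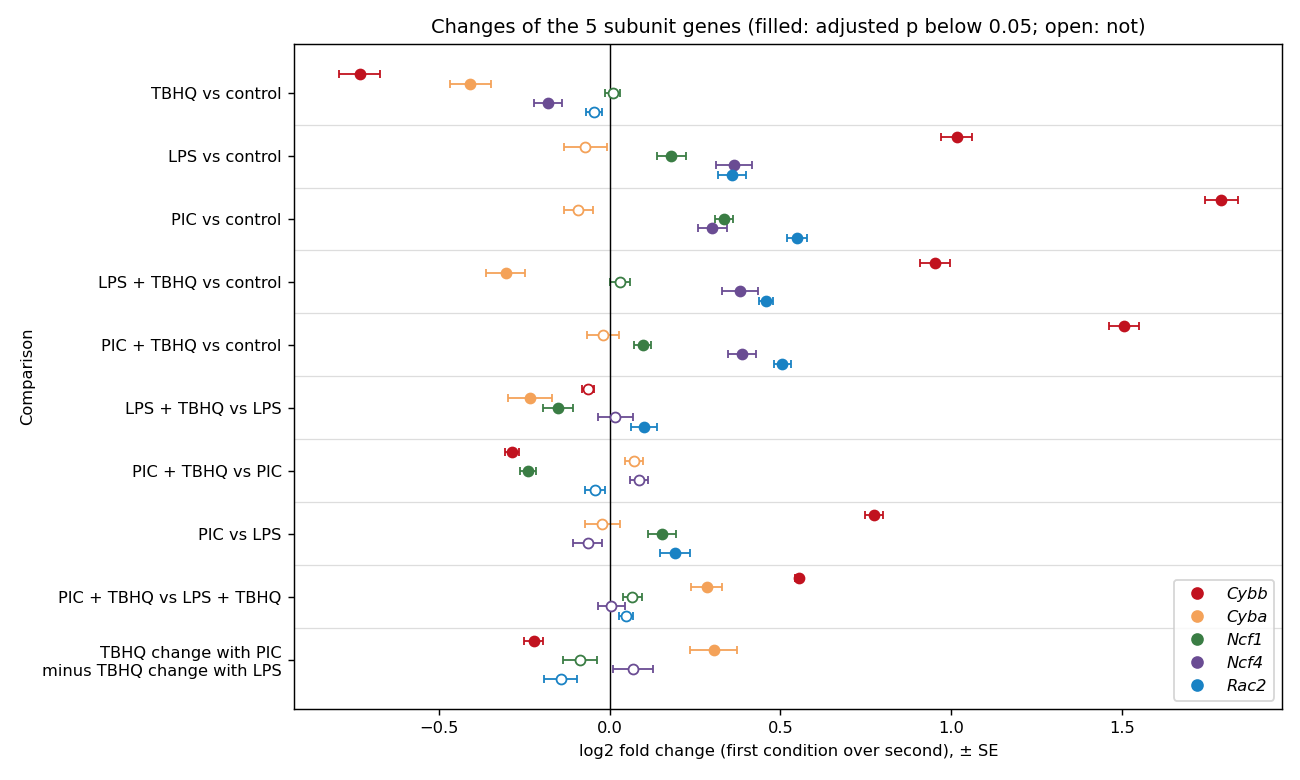
Log2 fold change of the 5 subunit genes (horizontal axis, ± SE from the replicate spread, n = 3 libraries per condition) in each of the 10 comparisons, filled where the adjusted p was below 0.05. Cybb has the highest value in every comparison of a stimulated condition with the control, up to 1.79 with PIC.

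Cybb (ENSMUSG00000015340, chromosome X, 9301491 to 9354010, - strand) encodes gp91phox, the subunit that carries the haems and the NADPH site of the oxidase. Gene positions are those listed beside the deposited counts. The untreated libraries had 89.4, 95.6 and 99.0 FPKM, and those with TBHQ for 4 h had 60.3, 55.5 and 55.5 FPKM. With LPS the values were 194, 195 and 189 FPKM and with LPS + TBHQ 186, 182 and 185 FPKM. With PIC they were 339, 331 and 324 FPKM and with PIC + TBHQ 271, 271 and 268 FPKM. Every condition was set apart from its neighbours, since no library of one overlapped a library of the next in the order PIC, PIC + TBHQ, LPS, LPS + TBHQ, control and TBHQ. With FPKM scaled by library totals alone, LPS and LPS + TBHQ overlapped. The mean rose from 94.7 ± 4.89 FPKM (SD, n = 3) in the control to 192 ± 3.44 FPKM with LPS and 331 ± 7.70 FPKM with PIC.

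LPS raised Cybb 2.02-fold, a log2 fold change of 1.02 ± 0.045 (SE, adjusted p = 1.29e-23). With PIC the rise was 3.46-fold, 1.79 ± 0.047 on the log2 scale (adjusted p = 2.90e-31), which ranked 457 from the top among the 13691 genes. All 3 PIC libraries lay above all 3 LPS libraries, and the difference was 0.77 ± 0.026 on the log2 scale (adjusted p = 1.70e-19). With TBHQ alone, harvested at 4 h, Cybb was at 0.602 of the control level, -0.73 ± 0.059 on the log2 scale (adjusted p = 3.11e-18). This was the lowest level of Cybb in the series. Compared with the control, LPS + TBHQ gave 0.95 ± 0.043 (adjusted p = 1.38e-22) and PIC + TBHQ gave 1.51 ± 0.043 (adjusted p = 8.39e-29). Pretreated cells thus held Cybb above the control in all 6 libraries.

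Pretreatment lowered Cybb in the PIC cells to 0.821 of the level with PIC alone, -0.29 ± 0.021 on the log2 scale (adjusted p = 1.92e-08). In the LPS cells the change was -0.06 ± 0.018 on the log2 scale and did not pass the test (adjusted p = 0.187), although the FPKM of the 3 pretreated libraries lay below those of the 3 with LPS alone. The difference between those changes was -0.22 ± 0.028 on the log2 scale (adjusted p = 0.00648), so the TBHQ change in Cybb was more negative with PIC than with LPS. Between PIC + TBHQ and LPS + TBHQ the log2 difference was 0.55 ± 0.0099 (adjusted p = 3.07e-15).

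**Figure D2:**
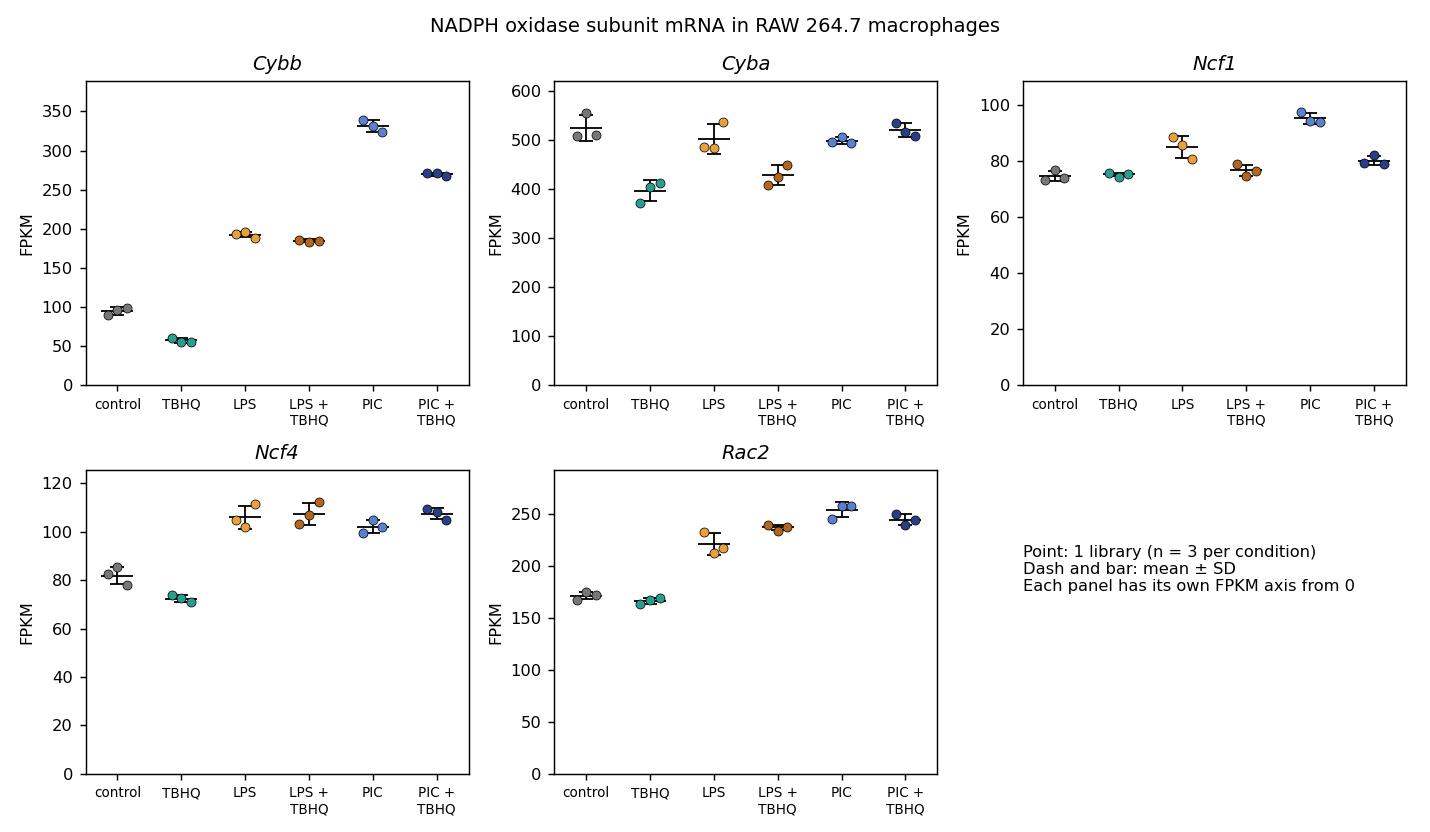
FPKM of the 5 genes (vertical axes, each from 0) in the 6 conditions, with 1 point per library and the mean ± SD (n = 3). Cybb runs from a mean of 57.1 FPKM with TBHQ to 331 with PIC, and Cyba is lowest with TBHQ and with LPS + TBHQ.

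Cyba (ENSMUSG00000006519, chromosome 8, 123151515 to 123159669, - strand) encodes p22phox, the partner that stabilises gp91phox and gives p47phox a docking site. The control libraries had 509, 555 and 511 FPKM, and those with LPS and with PIC had 485, 484 and 537 FPKM and 496, 506 and 493 FPKM. With TBHQ alone the values were 372, 403 and 413 FPKM and with LPS + TBHQ 409, 425 and 449 FPKM. The PIC + TBHQ libraries had 535, 516 and 508 FPKM. The conditions fell into a high group and a low group. Control, PIC + TBHQ, LPS and PIC each overlapped the next in the order of their means, and all their libraries lay above those of LPS + TBHQ and TBHQ, which overlapped each other. By library totals alone the control lay above the rest, and PIC overlapped LPS + TBHQ.

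With TBHQ alone, harvested at 4 h, Cyba was at 0.754 of the control, -0.41 ± 0.060 on the log2 scale (adjusted p = 1.61e-09). With LPS + TBHQ it was at 0.810, -0.30 ± 0.057 on the log2 scale (adjusted p = 2.16e-07). With TBHQ alone Cyba thus fell together with Cybb, its partner, which was at -0.73. With LPS + TBHQ Cyba was lower than in the control while Cybb was higher, at 0.95. Compared with LPS alone the pretreated LPS cells had a log2 change in Cyba of -0.23 ± 0.064 (adjusted p = 5.51e-05). The corresponding change with PIC was 0.07 ± 0.025 (adjusted p = 0.211), with all 3 pretreated libraries above the 3 with PIC alone, and 0.14 with total library size (adjusted p = 0.00671). The difference between those changes, 0.30 ± 0.069 on the log2 scale, passed the test (adjusted p = 0.00223). It was opposite in sign to that of Cybb. With limma on log2(FPKM + 1) it was 0.29 with an adjusted p of 0.0574. After TBHQ, Cyba was 1.22-fold higher with PIC than with LPS (log2 0.28 ± 0.046, adjusted p = 2.46e-06), whereas without TBHQ the same difference was -0.02 ± 0.051 (adjusted p = 0.765), or -0.15 with total library size (adjusted p = 0.00355). Scaling to the total library size instead of TMM moved Cyba with PIC from -0.09 to -0.31 (adjusted p = 3.41e-08), where the median of all genes was -0.23, so relative to that median the change was -0.08. The PIC change also passed without control replicate 1 (-0.11, adjusted p = 0.0372), control replicate 3 (-0.11, adjusted p = 0.0417) or TBHQ replicate 1 (-0.09, adjusted p = 0.0412), with no filter on low counts (adjusted p = 0.0387) and with a replicate block (adjusted p = 0.0492). With PIC + TBHQ, Cyba was at -0.02 ± 0.047 from the control (adjusted p = 0.719), or -0.17 with total library size (adjusted p = 0.000584).

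Cytochrome b558 holds gp91phox and p22phox as a pair, and the ratio of their mRNAs per length does not depend on how a library is scaled. The Cybb to Cyba FPKM ratio was 0.176, 0.172 and 0.194 in the control libraries and 0.162, 0.138 and 0.135 with TBHQ alone. With LPS it was 0.399, 0.403 and 0.351, and with LPS + TBHQ 0.455, 0.429 and 0.411. With PIC it was 0.685, 0.654 and 0.657, and with PIC + TBHQ 0.507, 0.525 and 0.527. The 6 conditions did not overlap in this ratio. Cyba mRNA exceeded Cybb mRNA per length in all 18 libraries, and the ratio stood at 0.181 ± 0.0116 (SD, n = 3) in the control and 0.665 ± 0.0168 with PIC. TBHQ went with a higher ratio under LPS, where Cyba was lower, and with a lower ratio under PIC, where Cybb was lower. No test was run on the ratio.

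**Figure D3:**
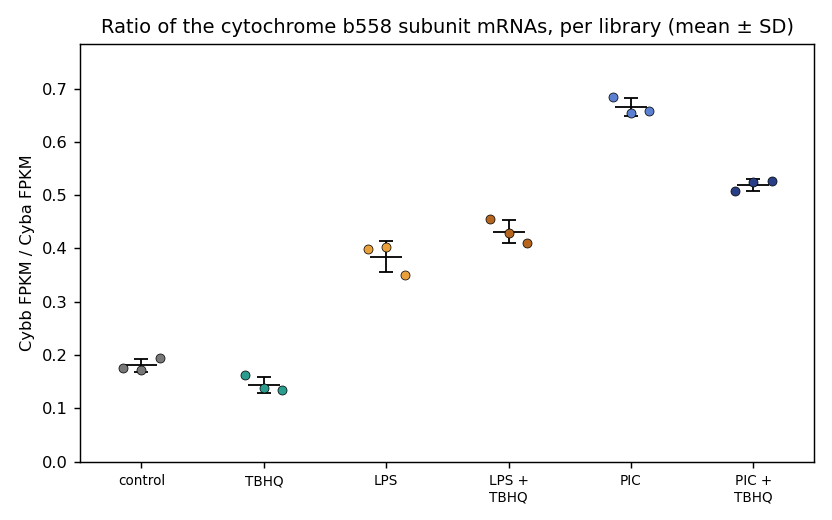
Ratio of Cybb FPKM to Cyba FPKM (vertical axis, no unit) in each library of the 6 conditions, with the mean ± SD (n = 3). The libraries of the 6 conditions do not overlap, from a mean of 0.145 with TBHQ to 0.665 with PIC.

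Among the cytosolic subunits, Ncf1 (ENSMUSG00000015950, chromosome 5, 134248907 to 134258479, - strand) encodes p47phox, the organiser that is phosphorylated on activation and links the cytosolic proteins to p22phox. The control libraries had 73.4, 76.6 and 73.8 FPKM and the TBHQ libraries 75.8, 74.5 and 75.4 FPKM. With LPS the values were 88.5, 85.7 and 80.8 FPKM and with LPS + TBHQ 78.8, 74.6 and 76.6 FPKM. With PIC they were 97.5, 94.2 and 94.0 FPKM and with PIC + TBHQ 79.4, 82.0 and 79.0 FPKM. PIC stood above every other condition without overlap, and the range over all libraries was narrow, with the highest 1.33-fold above the lowest. LPS overlapped PIC + TBHQ. Below these, with no overlap, lay LPS + TBHQ, TBHQ and control, each overlapping the next. The lowest PIC + TBHQ library (78.99 FPKM) lay just above the highest LPS + TBHQ library (78.81 FPKM). The difference between these 2 conditions did not pass the test (log2 0.07 ± 0.027, adjusted p = 0.204). By library totals alone PIC overlapped LPS, and each condition overlapped the next.

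Ncf1 rose 1.13-fold with LPS (log2 0.18 ± 0.042, adjusted p = 6.48e-05) and 1.26-fold with PIC (log2 0.33 ± 0.027, adjusted p = 3.67e-10). It was also higher with PIC than with LPS (log2 0.15 ± 0.042, adjusted p = 0.00102), but with total library size as the scaling that difference was 0.02 (adjusted p = 0.627) beside a median of all genes of -0.14. TBHQ alone gave 0.01 ± 0.021 (adjusted p = 0.89). Pretreatment lowered Ncf1 within both stimuli, by a log2 change of -0.15 ± 0.044 with LPS (adjusted p = 0.00151) and -0.24 ± 0.024 with PIC (adjusted p = 1.89e-06). The pretreated libraries lay below those with the stimulus alone in both cases. The difference between the changes was -0.09 ± 0.050 and did not pass the test (adjusted p = 0.454). Pretreated LPS cells had Ncf1 at 0.03 ± 0.030 from the control on the log2 scale (adjusted p = 0.54). For pretreated PIC cells the log2 fold change over the control was 0.10 ± 0.025 (adjusted p = 0.0224). That call was lost without control replicate 1, control replicate 3 or PIC + TBHQ replicate 2 (log2 0.08, 0.09 and 0.08, adjusted p = 0.0808, 0.0818 and 0.11), and total library size gave -0.05 (adjusted p = 0.225). Ncf1 overlaps Gtf2ird2 on the opposite strand, whose mean count was 5.40% of that of Ncf1. The study's methods describe the libraries as strand-specific, but the strand setting of the counting was not given in the sources used here.

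Ncf4 (ENSMUSG00000071715, chromosome 15, 78129001 to 78146780, + strand) encodes p40phox, which binds phosphatidylinositol 3-phosphate and supports oxidase activity at phagosomes. The control libraries had 82.4, 85.3 and 78.1 FPKM and the TBHQ libraries 73.8, 72.5 and 70.9 FPKM. With LPS the values were 105, 102 and 111 FPKM and with LPS + TBHQ 103, 107 and 112 FPKM. With PIC they were 99.5, 105 and 102 FPKM and with PIC + TBHQ 109.6, 108 and 105 FPKM. The order had 3 tiers. The 4 stimulated conditions overlapped from each to the next at the top, the control lay below all of them, and TBHQ lay below the control. By library totals alone PIC lay below the other stimulated conditions and overlapped the control.

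Ncf4 rose 1.29-fold with LPS (log2 0.36 ± 0.053, adjusted p = 2.45e-09) and 1.23-fold with PIC (log2 0.30 ± 0.043, adjusted p = 9.06e-08). With total library size the PIC change was 0.08 (adjusted p = 0.0697), which is 0.32 above the median of all genes in that fit. With TBHQ alone, harvested at 4 h, the log2 change of Ncf4 was -0.18 ± 0.042 (adjusted p = 9.99e-04). Pretreated cells stood at 0.38 ± 0.052 with LPS (adjusted p = 1.00e-09) and 0.39 ± 0.041 with PIC (adjusted p = 4.81e-10) over the control. Within a stimulus the TBHQ change was 0.02 ± 0.051 with LPS (adjusted p = 0.825) and 0.09 ± 0.027 with PIC (adjusted p = 0.109), and neither passed the test, while total library size gave 0.16 with PIC (adjusted p = 0.00226). From LPS to PIC the difference was -0.06 ± 0.043 (adjusted p = 0.269), or -0.19 with total library size (adjusted p = 0.000214).

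The ratio of Ncf4 to Ncf1 mRNA per length shows how the cytosolic pair moved. It was 1.12, 1.11 and 1.06 in the control libraries, 0.973, 0.974 and 0.941 with TBHQ and 1.02, 1.11 and 1.09 with PIC. LPS cells had 1.18, 1.19 and 1.38, and pretreated LPS cells 1.31, 1.43 and 1.46. In pretreated PIC cells it was 1.38, 1.32 and 1.33. Both pretreated and stimulated conditions had a higher mean than their stimulus alone, 1.40 ± 0.0811 compared with 1.25 ± 0.111 for LPS and 1.34 ± 0.0324 compared with 1.07 ± 0.0468 for PIC (SD, n = 3). The PIC pair did not overlap, while the third LPS library lay within the LPS + TBHQ range. No test was run on this ratio.

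Rac2 (ENSMUSG00000033220, chromosome 15, 78443367 to 78456983, - strand), the GTPase of blood cells that in its GTP form activates the assembled oxidase, lies on the same chromosome as Ncf4. The control libraries had 168, 175 and 172 FPKM and the TBHQ libraries 163, 167 and 169 FPKM. With LPS the values were 233, 213 and 218 FPKM and with LPS + TBHQ 239, 234 and 238 FPKM. With PIC they were 246, 258 and 258 FPKM and with PIC + TBHQ 249.7, 239 and 245 FPKM. The 4 stimulated conditions all lay above the control and TBHQ, which overlapped. PIC and PIC + TBHQ overlapped at the top, above LPS + TBHQ and then LPS. The lowest PIC + TBHQ library (239.4 FPKM) lay just above the highest LPS + TBHQ library (239.2 FPKM). The difference between these 2 conditions did not pass the test (log2 0.05 ± 0.021, adjusted p = 0.342). By library totals alone LPS + TBHQ had the highest mean, and the 4 stimulated conditions overlapped from each to the next.

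Rac2 rose 1.28-fold with LPS (log2 0.36 ± 0.041, adjusted p = 2.11e-11) and 1.46-fold with PIC (log2 0.55 ± 0.029, adjusted p = 1.11e-16). PIC exceeded LPS by 0.19 ± 0.043 on the log2 scale (adjusted p = 2.06e-05), or by 0.06 with total library size (adjusted p = 0.126). TBHQ alone gave -0.05 ± 0.023 (adjusted p = 0.337). Over the control, pretreated cells stood at 0.46 ± 0.020 with LPS (adjusted p = 4.66e-14) and 0.51 ± 0.026 with PIC (adjusted p = 1.60e-15). Pretreatment raised Rac2 within LPS by 0.10 ± 0.038 (adjusted p = 0.0232), a rise that did not pass without LPS replicate 2 or 3 or LPS + TBHQ replicate 1 or 3 (log2 0.07, 0.09, 0.09 and 0.10, adjusted p = 0.145, 0.08, 0.0717 and 0.064). Within PIC the change was -0.04 ± 0.029 (adjusted p = 0.342). The difference between the changes was -0.14 ± 0.048 (adjusted p = 0.115), which passed with DESeq2 (-0.16, adjusted p = 0.0134), with no filter on low counts (-0.16, adjusted p = 0.0497) and without LPS replicate 1 (-0.18, adjusted p = 0.0289).

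The other genes of the oxidase and its control were taken from 5 lists, each described by its counts and its median log2 fold change beside the share called and the median of all tested genes. Of 7 oxidase partners reported, all tested, 3 were lower and 1 higher with LPS, where 24.1% of all tested genes were lower and 24% higher, and the median was -0.088 against -0.0040 for all genes. With PIC 2 were higher and 1 lower, where 28.6% of all genes were higher and 30.1% lower, with a median of 0.011 against -0.015. Scaling to the library totals gave 0 higher and 4 lower in PIC cells. Without control replicate 1, 1 was lower with LPS and 1 higher with PIC. The most abundant was Arhgdia, a Rac inhibitor that binds the GDP form, at 462 ± 3.86 FPKM in the control. Nrros, a chaperone-like protein that lowers gp91phox, fell from 34.5 ± 1.15 FPKM in the control to 19.7 ± 1.18 with LPS (log2 -0.82, adjusted p = 1.28e-16) and 18.3 ± 1.24 with PIC (log2 -0.93, adjusted p = 2.01e-18). Cybc1, needed for gp91phox and p22phox protein, rose by 0.28 on the log2 scale with LPS (adjusted p = 2.37e-04) and 0.33 with PIC (adjusted p = 1.55e-05), the latter 0.11 with total library size (adjusted p = 0.0966). Rac1, a widely expressed relative of Rac2, was at -0.12 with LPS (adjusted p = 0.0103), which did not pass without control replicate 1 (-0.086, adjusted p = 0.0928) or LPS replicate 2 (-0.10, adjusted p = 0.0561). Rap1a, a GTPase found with cytochrome b558, was at 0.14 with PIC (adjusted p = 0.013), but at -0.079 with total library size (adjusted p = 0.156) and 0.13 without control replicate 1 (adjusted p = 0.0502).

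Of 9 other oxidase family members only 2, Nox3 and Nox1, had enough counts to be tested, and Nox4, Duox1, Duoxa2 and Noxa1 had 0 counts in every library. Nox3, the more abundant, fell from 1.93 ± 0.0763 FPKM in the control to 0.744 ± 0.257 with TBHQ (log2 -1.38, adjusted p = 6.00e-06). It was the 1 gene of the pair that fell with TBHQ, where 14.8% of all tested genes fell, and the median of the pair was -0.66 against -8.6e-05 for all genes. Both rose with LPS, where 24% of all tested genes rose, with a median of 1.09 against -0.0040. The rise of Nox3 with LPS was 0.50 on the log2 scale (adjusted p = 0.0212), and it did not pass with total library size or without control replicate 2 or LPS replicate 2 (log2 0.41, 0.47 and 0.47, adjusted p = 0.0552, 0.0636 and 0.0585). With PIC 1 of the pair rose, Nox1, where 28.6% of all tested genes rose, with a median of 0.54 against -0.015, and 0 rose without control replicate 2 or PIC replicate 1. Nox1 did not pass a filter at a mean of 50 counts, and was named because so few of the list were tested.

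Of 19 Rac activators and upstream kinases tested (of 20 counted), 7 rose and 9 fell with LPS and 6 rose and 10 fell with PIC. Of all tested genes 24% rose and 24.1% fell with LPS and 28.6% rose and 30.1% fell with PIC. The list had medians of -0.089 against -0.0040 and -0.12 against -0.015 for all genes. Syk, the kinase below Fc receptors, rose 1.98-fold with LPS and 2.84-fold with PIC. Prkcd, a protein kinase C isoform, rose 1.49-fold with PIC, while Pak1 and Pik3cd fell, with log2 fold changes of -0.89 and -0.78. Akt1 was the most abundant at 87.2 ± 1.12 FPKM in the control, and Vav2 rose by 0.60 on the log2 scale with LPS + TBHQ. Of 14 receptors, all tested, 10 rose and 1 fell with LPS (2 fell with total library size) and 11 rose and 3 fell with PIC, with medians of 0.43 against -0.0040 and 0.65 against -0.015 for all genes. With TBHQ alone 7 receptors fell and 3 rose, or 1 without control replicate 3, where 14.8% of all tested genes fell and 14.2% rose, and the median was -0.33 against -8.6e-05 for all genes. In the same comparison 7 of the 19 Rac activators and kinases rose and 1 fell, with a median of 0.048. Of the 7 oxidase partners 2 rose and 2 fell (median -0.067). Of the 14 transcription factors tested 6 rose and 3 fell (median 0.11). Pretreatment of the PIC cells went with 8 receptors lower and 1 higher, the latter 2 with total library size and 0 with limma or without PIC replicate 2. There 15.5% of all tested genes were lower and 15.8% higher, and the median was -0.25 against 0.0089 for all genes. C5ar1, the receptor for the complement fragment C5a, rose with PIC (log2 2.74, adjusted p = 8.67e-30), and Cd14 was the most abundant at 809.7 ± 31.0 FPKM in the control and 1658 ± 45.9 with PIC. Fcgr2b and Itgam also rose with PIC, by 1.52 and 1.25 on the log2 scale, whereas Fcgr1 and Clec7a fell with TBHQ, with log2 fold changes of -1.28 and -0.76.

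Of 17 transcription factors of oxidase subunit genes counted, 14 were tested, 7 rose and 4 fell with LPS, and 9 rose and 3 fell with PIC, beside 24% and 24.1% of all tested genes with LPS and 28.6% and 30.1% with PIC. The medians were 0.13 against -0.0040 and 0.33 against -0.015 for all genes. Spi1, which encodes PU.1, was the most abundant at 139 ± 3.54 FPKM in the control and 155 ± 3.70 with PIC. Irf1, an interferon regulatory factor, rose by 0.61 on the log2 scale with PIC (adjusted p = 6.32e-07) and was lower by a log2 change of -0.43 in pretreated PIC cells (adjusted p = 3.63e-04), and Nfkb1 changed by 1.25 and -0.47 in the same comparisons. Ahr rose from 0.109 ± 0.0309 to 3.36 ± 0.144 FPKM with PIC. Cebpa fell with PIC (log2 -1.46) and rose with TBHQ by 0.97, and Cebpb rose with TBHQ by 0.58.

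The macrophage label was checked against 8 marker genes, of which 6 had a mean of at least 1 FPKM, led by Lyz2 at 4021 FPKM, with Cd68 at 658 and Csf1r at 124 FPKM. The 8 summed to 5397 ± 179 FPKM in the control, 4481 ± 97.8 with LPS and 4300 ± 88.2 with PIC (SD, n = 3). The sum was 4903 ± 42.7 FPKM with TBHQ, 5253 ± 114 with LPS + TBHQ and 4879 ± 187 with PIC + TBHQ. Lyz2 made up most of the sum, so it does not show how the other markers moved. Against the control, Itgam rose by 0.96 on the log2 scale with LPS and 1.25 with PIC. Mean log2 CPM of Adgre1 was higher by 1.46 and 1.86. Fcgr1 was at -0.02 with LPS and -0.55 with PIC, and changes of the other markers are not given singly. Marco had 0 counts and Mertk at most 5 in any library. Neutrophils, the other cells rich in this oxidase, were looked for with 9 markers. Their summed FPKM was 0.318 to 6.77 over the 18 libraries, most of it S100a8 with a mean of 2.89 FPKM, and Ly6g, Ltf and S100a9 had 0 counts in every library. The sum was 1.16 ± 0.0448 FPKM in the control, 4.14 ± 0.584 with LPS and 6.28 ± 0.475 with PIC, and its condition means came in the same order as those of Cybb. It was 4.14 ± 1.41 FPKM with LPS + TBHQ and 4.53 ± 0.749 with PIC + TBHQ. The libraries of those conditions overlapped each other and those with LPS, so the order among them was not resolved. Mean Cybb ran from 57.1 to 331 FPKM over the same conditions, and any link between this sum and the Cybb values was not tested. Markers of T cells, B cells, fibroblasts and epithelial cells, each list taken by itself, summed to at most 0.354 FPKM in any library.

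The genes with patterns most like each subunit were found by the root mean square difference in log2 CPM, each gene centred on its own mean, over 18 libraries and 10450 genes with a mean of at least 50 counts. For Cybb they were Fabp4 (0.154), C130026I21Rik (0.159) and Adgre1 (0.192). For Cyba they were Uqcrq (0.0684), Itm2b (0.0788) and Cox4i1 (0.0840), and Uqcrq and Cox4i1 encode subunits of the mitochondrial respiratory chain. Those for Ncf1 were Pafah1b1 (0.0441), Zfp609 (0.0501) and Itsn2 (0.0534), those for Ncf4 Lonp1 (0.0537), Cd37 (0.0568) and Chid1 (0.0635) and those for Rac2 included Peds1 (0.0576) and Stam2 (0.0601). Among the subunit genes themselves the closest pair was Ncf4 and Rac2 at 0.0997, and Cybb and Cyba, partners in one complex, differed by 0.802.

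RefSeq promoter windows (GRCm38.p6) were found for 3 of the 5 genes, Cybb, Cyba and Ncf1. All 3 windows are shown, from 250 bases before the gene start to 30 after it, with matches to the motifs in capitals. The motifs were searched on both strands of the full 300 bases as the PU.1 core GAGGAA, the ETS-IRF composite GGAANNGAA, the interferon element core GAAANNGAA, the gamma-activated site TTCNNNGAA, the kappa B site GGGNNTTCC, the antioxidant response element core TGACNNNGC, the CCAAT box and the GC box GGGCGG.
Cybb, chrX:9469295-9469574, minus strand: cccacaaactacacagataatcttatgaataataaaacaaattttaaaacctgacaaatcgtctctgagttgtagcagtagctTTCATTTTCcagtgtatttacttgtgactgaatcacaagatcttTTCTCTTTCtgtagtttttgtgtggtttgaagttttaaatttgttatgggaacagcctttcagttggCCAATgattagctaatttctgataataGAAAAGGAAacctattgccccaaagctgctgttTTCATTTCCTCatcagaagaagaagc
Cyba, chr8:122432911-122433190, minus strand: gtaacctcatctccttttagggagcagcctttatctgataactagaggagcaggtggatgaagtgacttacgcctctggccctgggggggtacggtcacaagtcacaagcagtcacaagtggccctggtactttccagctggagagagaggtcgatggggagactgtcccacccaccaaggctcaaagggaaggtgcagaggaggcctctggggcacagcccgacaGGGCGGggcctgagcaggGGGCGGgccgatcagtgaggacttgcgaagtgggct
Ncf1, chr5:134229596-134229875, minus strand: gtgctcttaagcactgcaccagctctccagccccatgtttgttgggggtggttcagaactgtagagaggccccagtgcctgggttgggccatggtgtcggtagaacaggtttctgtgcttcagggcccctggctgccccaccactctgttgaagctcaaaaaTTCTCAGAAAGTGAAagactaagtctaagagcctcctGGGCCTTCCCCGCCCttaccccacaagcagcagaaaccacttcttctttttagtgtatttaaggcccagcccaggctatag
The Cybb window had 3 interferon element cores, starting 167, 123 and 29 bases before the gene start, whereas 8.56% of all 32851 windows had at least 1 and 0.0639% had 3 or more. It also had 1 CCAAT box (37.4% of windows), and an ETS-IRF composite (8.24%) and a PU.1 core (28.3%) that overlapped each other just after the start. The Ncf1 window had 1 gamma-activated site (8.3%) and 1 interferon element core that overlapped it. Closer to the gene start lay a kappa B site (5.82%), directly followed by a GC box (35.7%). The Cyba window had 2 GC boxes, where 19.5% of windows had 2 or more, and no match to the other motifs searched. The antioxidant response element core, in 12.4% of windows, was not matched in any of the 3. These matches describe the letters of the windows, and binding was not measured.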

How the data were processed

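RNA from 18 cultures was sequenced in bulk. The authors deposited 1 table of gene counts and 1 table of FPKM, with gene lengths and positions. The submitters' processing notes name HISAT2 2.0.5, StringTie 1.3.3b and featureCounts 1.5.0-p3, and give the build as GRCm38/mm39. The other value deposited beside the counts and FPKM was the gene length in bases. The deposited FPKM equalled FPKM computed from counts, gene length and library totals times a constant for each library (median ratio 0.943 to 1.12), whose origin was not given in the sources used here. The study's methods describe strand-specific libraries, whereas the sample labels mention both directional and non-directional ones. The strand setting of the counting was not given in the sources used here.

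Counts were tested with edgeR 4.0.16 (R 4.3.3, filterByExpr, TMM scaling, quasi-likelihood test, Benjamini-Hochberg adjustment over 13691 genes) in 1 fit of the 6 conditions, with 10 comparisons. DESeq2 1.42.0 and limma 3.58.1 (pseudocounts of 1 and 0.1 on FPKM) served as alternatives, with other scalings, other filters, a replicate block and each library left out. The SE of a log2 fold change was the square root of the summed variances of the mean log2 CPM (prior count 2) in the conditions compared. Each subunit gene had at least 2396 counts in every library. The fitting step was tested on simulated data, with limits on changes recovered and on false calls that were loosened after earlier runs did not meet them. For limma the limit on the smaller changes was waived, and with a pseudocount of 1 that on the larger changes as well.

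Members and lists were chosen with earlier results of these data known. From each of 5 lists the text names the gene with the highest mean FPKM and up to 5 genes with the largest called log2 fold change in any comparison at a mean of at least 1 FPKM. The results for 4 other genes are not reported here, and the list counts leave them out. Promoter sequences came from RefSeq (GRCm38.p6), and their positions are not those of the authors' tables.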

Additional observations from a re-analysis of the deposited data

Results flagged for a closer look

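The change in Cyba with TBHQ pretreatment differed between the stimuli, by 0.30 on the log2 scale between PIC and LPS cells, in a test of the difference itself (edgeR quasi-likelihood test, adjusted p = 0.00223). For Cybb the same difference was -0.22 (adjusted p = 0.00648), opposite in sign. With limma the Cyba difference was 0.29 and was not called at either pseudocount (adjusted p = 0.0574 and 0.0625). No cause was tested for either.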

How the results depend on the processing

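All 27 alternatives, of which 18 left out 1 library each, were run on the 5 genes. Of the tests of a member and a comparison outside the left-out libraries, 425 kept direction and call, 6 lost a call, 11 gained one and 9 changed sign, and 1 of those 9, Ncf1 in PIC + TBHQ against control, is also among the 6. When libraries were scaled by their totals and not by TMM, the median of all genes became -0.23 for PIC against control, -0.15 for PIC + TBHQ against control and -0.14 for PIC against LPS, from -0.015, -0.0012 and -0.0087. Under that scaling 4 of the 5 genes were called between PIC + TBHQ and PIC, compared with 2. Values that turned in sign under it were Ncf1 in LPS + TBHQ (-0.033) and PIC + TBHQ (-0.052) against control, Rac2 in PIC + TBHQ against PIC (0.026), and Ncf1 (-0.018), Ncf4 (-0.080) and Rac2 (-0.037) in PIC + TBHQ against LPS + TBHQ. The list gene Rap1a turned too, to -0.079 in PIC against control. Relative to the median of all genes, Ncf1 in PIC + TBHQ against control was 0.10. The share of called genes that were higher also moved, to 35.0% against 49.8% for LPS against control, 26.4% against 48.7% for PIC against control, 36.1% against 48.4% for LPS + TBHQ against control, 30% against 50.4% for PIC + TBHQ against control, 59.5% against 48.9% for LPS + TBHQ against LPS, 70.3% against 50.6% for PIC + TBHQ against PIC, 18.4% against 53.7% for PIC against LPS, 25.6% against 58.5% for PIC + TBHQ against LPS + TBHQ and 76.0% against 45.0% for the difference between the TBHQ changes.

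For Ncf4 in PIC + TBHQ against LPS + TBHQ, a difference near 0, the sign also turned with only the compared conditions (-0.0051), no filter on low counts (-0.0099) and a filter at a mean of 50 counts (-0.0052). With limma on FPKM and pseudocounts of 1 and 0.1, 1 of the 5 genes differed in its TBHQ change between stimuli, compared with 2. Over all genes that comparison called 251, but 380 with no filter, 147 with limma and a pseudocount of 0.1, and 160 without LPS + TBHQ replicate 2. The share of its called genes that were higher, 45.0%, rose with total library size but fell in several other alternatives. It was 35.1% with RLE size factors, another scaling, 29.1% with DESeq2 and 37.6% with no filter. With limma it was 32.5% and 38.1% at pseudocounts of 1 and 0.1, and with a replicate block 45.6%. FPKM computed from counts, gene length and TMM-scaled totals gave 490.4 for Cyba with PIC, 182.4 for Cybb with LPS + TBHQ and 267.7 for Cybb with PIC + TBHQ. With library totals alone, FPKM in control, PIC and PIC + TBHQ was 554, 447 and 493 for Cyba, 100.025, 298 and 256 for Cybb, 78.8, 85.5 and 76.1 for Ncf1, 86.5, 91.7 and 102 for Ncf4 and 181, 228 and 232 for Rac2, and with TBHQ 60.1 for Cybb, 79.2 for Ncf1, 76.2 for Ncf4 and 175 for Rac2. This scaling and the alternatives for the list genes were chosen after seeing the data. The causes of these changes were not tested.

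When each library was left out in turn, the members called numbered 4 to 5 with LPS and with PIC, 3 to 4 with PIC + TBHQ, 2 to 3 between LPS + TBHQ and LPS, and 2 to 3 for the difference between the TBHQ changes. Log2 values that changed sign ran from -0.0027 to 0.028 for Ncf1 with TBHQ, -0.043 to 0.022 for Cyba with PIC + TBHQ, -0.016 to 0.054 for Ncf4 in LPS + TBHQ against LPS, -0.046 to 0.033 for Cyba in PIC against LPS and -0.024 to 0.038 for Ncf4 in PIC + TBHQ against LPS + TBHQ. With a replicate block, 5 of the 5 genes were called with PIC, since Cyba passed (log2 -0.09, adjusted p = 0.0492), and it changed no other call. The 45 correlations between same-numbered libraries ran from -0.0719 to 0.142, with 2 above 0.1, so the numbers were not taken to pair the libraries.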
